A study of Zea mays with 12 samples.

Results

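S40 proteins, also called senescence regulators, are a plant-specific family recognised by the domain PF04520. The family was taken as all genes of the maize tables whose description names this domain or a senescence regulator, together with ZmS40-3 and ZmS40L, which were already named as regulators of cell death in these cells. The rule found 20 gene models among 43458 annotated genes, and both named members also carried the description. Their RNA was followed in synergid cells of the maize inbred line B73, in cells isolated by hand before pollination (SC, 0 hours after pollination, HAP) and in the persistent synergid cells that remained at 12 HAP (pSC12), 18 HAP (pSC18) or 24 HAP (pSC24). Each stage had 3 libraries, each made from amplified cDNA of 25 to 28 cells. The stages are defined by pollination and the time after it, and no mutant, transgene or treatment other than pollination is named for any of them.

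The first S40 gene was described in barley, where its RNA accumulates in senescing leaves and after treatment with abscisic acid, jasmonate or salicylic acid. S40 proteins are found in the nucleus, and in Arabidopsis the loss of a member delays leaf senescence. Synergid cells stand beside the egg cell and guide the pollen tube. One of them degenerates when it receives the pollen tube. The study reports that the persistent synergid cell enters a cell death program after fertilization and is then removed by fusion with the endosperm. Apart from that leaf work, roles of single maize members are not assigned here.

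Expression is given as FPKM, fragments per kilobase of gene length scaled to library size, which allows levels of different genes to be compared. Library totals ran from 15435736 to 26539602 counts on genes. The synergid genes ZmES4 and ZmMYB98 were expressed in each of the 12 libraries, with a summed level of 12083 to 14157 FPKM before pollination, of 6666 to 6917 FPKM at 12 HAP, 8789 to 10744 FPKM at 18 HAP and 9819 to 13193 FPKM at 24 HAP, and ZmMYB98 alone went from 1048 to 1205 FPKM in SC to between 55.2 and 179 FPKM in pSC24. Both egg cell genes on the marker list were also detected, with a summed level of 172 to 428 FPKM before pollination, of 47.2 to 67.9 at 12 HAP, 67.5 to 199 at 18 HAP and 42.8 to 119 at 24 HAP. Of 12 endosperm and central cell genes, 10 had no count in any library. The other 2, both MATERNALLY EXPRESSED GENE-like, were present in all 12 libraries, at 61.1 to 108 FPKM for Zm00001eb202590 and at 870 to 2013 FPKM for a locus without an annotated gene. All 7 genes taken as sperm and pollen markers had counts, among them 3 genes for a heat- and acid-stable phosphoprotein that the search word caught. Their summed level was 627 to 704 FPKM before pollination and 308 to 374 FPKM at 24 HAP. GAMETE EXPRESSED 1 (200 to 587 FPKM) and HAPLESS 2 (7.74 to 22.3 FPKM) were each highest in an SC library. GAMETE EXPRESSED 2 and 3 reached at most 0.143 and 1.11 FPKM. By the share of reads that mapped, for which the study's library statistics were used, the libraries form a lower and a higher set. SC, pSC18 and pSC24 replicate 1 are the lower mapping set, and pSC12 and pSC24 replicates 2 and 3 are the higher one. The stage and the mapping set therefore cannot be told apart in comparisons of pSC12 with SC or pSC18, and pSC24 is the stage that holds both. A term for the mapping set, where added to a fit below, is thus estimated from the pSC24 libraries alone. With it, a change from SC or pSC18 to pSC24 rests on pSC24 replicate 1, and one from pSC12 on replicates 2 and 3.

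The S40 genes are small and nearly intron-free. They lie on 8 chromosomes of the AGPv5 assembly of B73, 17 as protein coding genes and 3 as non-coding models. Their lengths ran from 529 to 1551 bp with a median of 975 bp, against a median of 1471 bp for 39034 protein coding genes of the table. In 16 of the 17 coding members (94.1%) the summed exon length equalled the whole span of the gene, so that the model has no intron, which held for 23.2% of all coding genes. By position, 19 members lie over a RefSeq gene, and these are 15 different RefSeq genes.

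Of the 20 members, 9 overlap another gene model, in each case on the opposite strand. Among them, 8 form 4 antisense pairs of S40 models: Zm00001eb083770 with Zm00001eb083780, Zm00001eb105970 with Zm00001eb105980, Zm00001eb361820 with Zm00001eb361830, and Zm00001eb427680 with Zm00001eb427670. The strand setting of the counting is not given in the sources used here, and without strand the reads of the partners in such a pair cannot be told apart. None of the 7 members with at least 1 FPKM in a stage overlaps another gene model.

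Transcript levels differed widely between members, and ZmS40-3 made up most of the family's summed FPKM in the mean of each stage. The summed level of all members was 46.3 ± 18.5 FPKM before pollination, 55.4 ± 12.3 FPKM at 12 HAP, 95.5 ± 35.1 FPKM at 18 HAP and 612 ± 345 FPKM at 24 HAP (mean ± SD, n = 3 libraries, as for the levels below). ZmS40-3 contributed a mean of 58.4% of it before pollination (48.1 to 65.7% in single libraries), and 71.6, 73.1 and 85.7% at 12, 18 and 24 HAP. In the same order of stages, 6, 4, 7 and 7 members had a mean over 1 FPKM. In libraries of pooled cells, fewer cells with a transcript and less RNA per cell cannot be told apart.

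**Figure D1:**
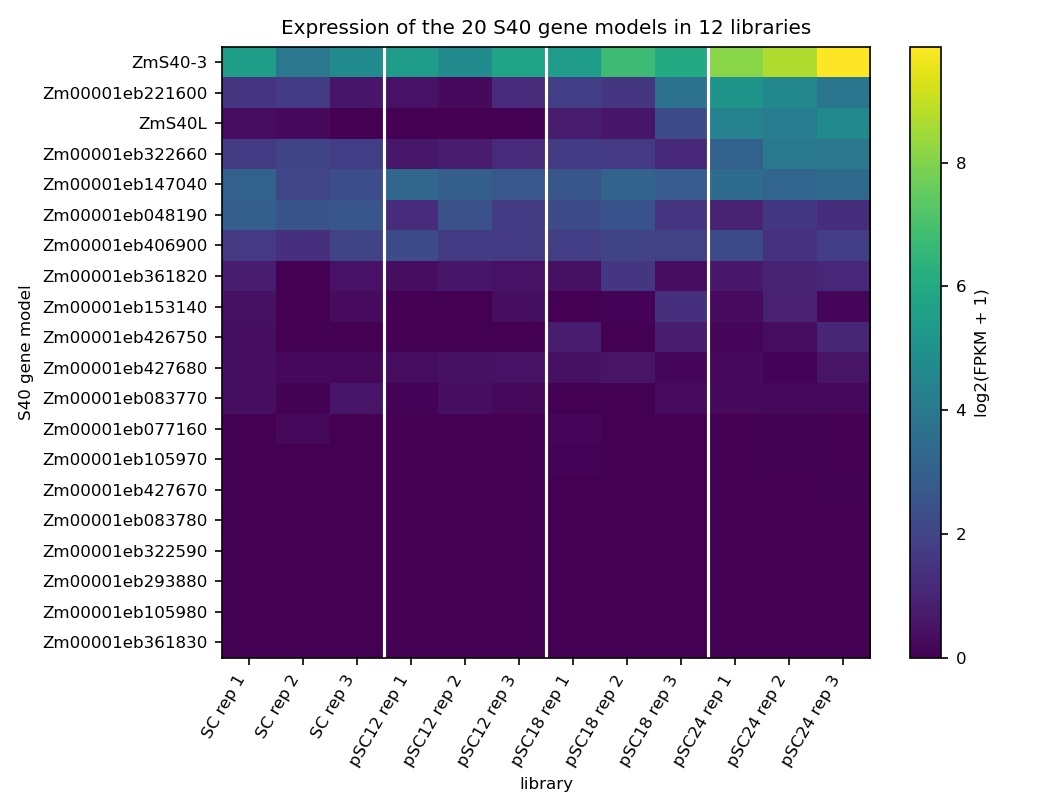
Expression of the 20 S40 gene models (rows, in the order of their highest stage mean) in the 12 libraries (columns, white lines between stages), as log2(FPKM + 1) by colour. ZmS40-3 is the brightest row in each library, the next 6 genes reach at least 2.83 FPKM in a stage, and the lower 13 have stage means of at most 0.899 FPKM.

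ZmS40-3 (Zm00001eb353760, chromosome 8, 128449999 to 128450732, plus strand, a single exon) was the most abundant member and rose most in FPKM. In SC it was measured at 43.6, 14.3 and 26.4 FPKM in replicates 1, 2 and 3. In pSC12 the levels were 42.9, 26.0 and 52.2 FPKM, overlapping SC. In pSC18 they were 41.3, 107.9 and 65.1 FPKM, so that 1 library was still at the SC level. In pSC24 they reached 278, 409 and 934 FPKM. All 3 pSC24 libraries lay above the other 9 libraries, while SC, pSC12 and pSC18 overlapped. By mean FPKM among annotated genes, ZmS40-3 went from rank 2828 before pollination to ranks 1770 and 874 at 12 and 18 HAP and to rank 70 at 24 HAP.

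Stages were compared on the counts with the quasi-likelihood test of edgeR, with p-values adjusted over the 21143 genes tested, and a gene is called where the adjusted p is under 0.05 and the log2 fold change is over 1 in size. ZmS40-3 was 19.0-fold higher in pSC24 than in SC (log2 fold change 4.25 ± 0.55 SE, adjusted p = 0.000127, edgeR) and 7.47-fold higher than in pSC18 (2.90 ± 0.51, adjusted p = 0.00297). Its log2 fold change from SC to pSC18 was 1.35 ± 0.50 (adjusted p = 0.117, not called), and that from SC to pSC12 was 0.53 ± 0.49 (adjusted p = 0.615). ZmS40-3 and ZmS40L had been picked for display on these same libraries, so their direction is no independent evidence for the family.

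Single libraries bear on the size of the rise of ZmS40-3. Within pSC24 the highest library exceeded the lowest 3.36-fold, against a median of 1.61-fold over 1550 genes that were called higher in pSC24 than in SC and had at least 5 FPKM. Without pSC24 replicate 3 the stage mean was 344 FPKM in place of 540, and the log2 fold change was 3.60 from SC, 3.07 from pSC12 and 2.25 from pSC18, each still called (adjusted p = 0.000223, 0.000827 and 0.00811). Replicate 3 also held the highest value of the stage for 46.2% of the 2170 genes called higher in pSC24 than in SC, and ZmMYB98 was at 59.7, 55.2 and 179 FPKM in replicates 1, 2 and 3. The part of these differences in the level of ZmS40-3 was not tested. Within the lower mapping set, pSC24 replicate 1 was 9.88-fold above the SC mean and 3.89-fold above the pSC18 mean, and within the higher set pSC24 replicates 2 and 3 were 16.6-fold above pSC12.

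ZmS40L (Zm00001eb247750, chromosome 5, 190771715 to 190772674, minus strand, a single exon) was almost silent before 18 HAP. Its counts were 4, 3 and 0 in SC and 0 in all 3 pSC12 libraries, where 3 counts per library would correspond to 0.108 FPKM. In pSC18 it had 10, 10 and 84 counts, or 0.668, 0.518 and 3.96 FPKM. In pSC24 it had 412, 439 and 599 counts, or 19.4, 16.6 and 25.6 FPKM. The pSC18 libraries all lay above SC and pSC12 and below pSC24, with replicate 3 well apart from replicates 1 and 2.

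ZmS40L was the earliest member to be called against SC. Its log2 fold change was 3.54 ± 0.97 (SE) from SC to pSC18 (adjusted p = 0.0472, edgeR), 7.09 ± 1.03 from SC to pSC24 (adjusted p = 0.000553) and 3.55 ± 0.81 from pSC18 to pSC24 (adjusted p = 0.0156). Against the level that 3 counts per library allow in pSC12, it was at least 15.9-fold higher in pSC18 and at least 191-fold higher in pSC24, and without pSC18 replicate 3 the bound for pSC18 was at least 5.51-fold. The adjusted p was 0.0763 from pSC12 to pSC18 and 0.000249 from pSC12 to pSC24. The onset at 18 HAP rests on few counts. Leaving out pSC18 replicate 3 lowered the change from SC to 2.0 (adjusted p = 0.162) and the mean of pSC18 to 0.593 FPKM, leaving out SC replicate 3 lowered it to 2.92 (adjusted p = 0.139), and 9 of the 12 single libraries each ended the call when left out (any SC or pSC24 library, pSC12 replicate 1 or 2, or pSC18 replicate 3, with an adjusted p of 0.0508 to 0.162). Without pSC18 replicate 3 the change from pSC18 to pSC24 was 5.09 (adjusted p = 0.00203), and without SC replicate 1 the change from SC to pSC24 was 7.71 (adjusted p = 0.00292).

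Zm00001eb221600 (chromosome 5, 28843015 to 28844030, plus strand) rose late and, like ZmS40L, was uneven in pSC18. It stood at 1.79, 2.25 and 0.495 FPKM in SC and at 0.406, 0.203 and 1.26 FPKM in pSC12. In pSC18 it was at 2.59, 1.96 and 11.9 FPKM, and in pSC24 at 33.9, 23.6 and 13.6 FPKM. Replicate 3 was thus the highest library of pSC18 and the lowest of pSC24, the opposite of its place for ZmS40-3 and ZmS40L in that last stage. Its log2 fold change was 3.96 ± 0.83 (SE) from SC to pSC24 (adjusted p = 0.00357, edgeR) and 5.22 ± 0.89 from pSC12 to pSC24 (adjusted p = 0.00127). From pSC18 to pSC24 it was 2.10 ± 0.76 (adjusted p = 0.0844), with no overlap between libraries, and the gene was called without pSC18 replicate 3 (3.36, adjusted p = 0.0150). From SC to pSC18 it was 1.86 ± 0.78 (adjusted p = 0.169), and without pSC18 replicate 3 it was 0.59 (adjusted p = 0.705) and the pSC18 mean 2.27 FPKM in place of 5.48. Leaving out pSC12 replicate 3 raised the change from pSC12 to pSC24 to 6.23 (adjusted p = 0.00184).

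Zm00001eb322660 (chromosome 7, 162177632 to 162178621, minus strand) was lower at 12 HAP than before pollination and highest at 24 HAP. Its levels were 2.37, 3.06 and 2.54 FPKM in SC and 0.555, 0.695 and 1.30 FPKM in pSC12, without overlap. In pSC18 they were 2.40, 2.11 and 1.19 FPKM, and in pSC24 they were 7.43, 14.3 and 14.03 FPKM, above the other 9 libraries. The log2 fold change from SC to pSC12 was -1.63 ± 0.46 (SE, adjusted p = 0.0581, edgeR, not called), and the gene was called lower without pSC12 replicate 3 (-2.07, adjusted p = 0.0451) or without pSC18 replicate 3 (adjusted p = 0.0481). It was 2.15 ± 0.45 from SC to pSC24 (adjusted p = 0.00363), 3.78 ± 0.49 from pSC12 to pSC24 (adjusted p = 0.000213) and 2.64 ± 0.46 from pSC18 to pSC24 (adjusted p = 0.00288). In pSC24 the library of the lower mapping set had 7.43 FPKM and the libraries of the higher set 14.3 and 14.03 FPKM. With a term for the mapping set, which leaves pSC24 replicate 1 alone against SC, the log2 fold change was 1.48.

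Zm00001eb048190 (chromosome 1, 247231329 to 247232696, minus strand) was the member that fell. It was the second most abundant S40 gene in SC, at 7.0, 4.92 and 5.19 FPKM, and stood at 1.38, 4.40 and 2.38 FPKM in pSC12. The levels were 3.94, 4.62 and 1.89 FPKM in pSC18 and 0.990, 2.04 and 1.47 FPKM in pSC24. Each of the 9 libraries after pollination lay below the 3 SC libraries. The log2 fold change from SC was -1.06 ± 0.49 (SE) at 12 HAP (adjusted p = 0.252, edgeR), -0.71 ± 0.49 at 18 HAP (adjusted p = 0.420) and -1.93 ± 0.51 at 24 HAP (adjusted p = 0.0128, called). The call at 24 HAP was lost without SC replicate 1 (-1.73, adjusted p = 0.0545) and with glmTreat of edgeR, which tests against the fold threshold (adjusted p = 0.127). With a term for the mapping set, which leaves pSC24 replicate 1 alone against SC, the log2 fold change was -2.53.

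Zm00001eb147040 (chromosome 3, 181308683 to 181309890, minus strand) was expressed in all 12 libraries between 3.17 and 10.1 FPKM. The SC libraries were at 7.30, 3.17 and 4.02 FPKM and the pSC24 libraries at 10.1, 8.20 and 9.76 FPKM, without overlap. The log2 fold change of 0.94 ± 0.33 (SE) missed the threshold of the call (adjusted p = 0.0530, edgeR), and without SC replicate 1 it was 1.39 (adjusted p = 0.0120, called). Zm00001eb406900 (chromosome 10, 5556612 to 5557814, plus strand) ranged from 1.49 to 3.94 FPKM over all libraries. Its stage means of 2.23 ± 0.79, 2.83 ± 0.96, 2.74 ± 0.26 and 2.57 ± 1.0 FPKM from SC to pSC24 overlapped throughout, and the log2 fold change from SC to pSC24 was 0.19 ± 0.47 (adjusted p = 0.814).

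**Figure D2:**
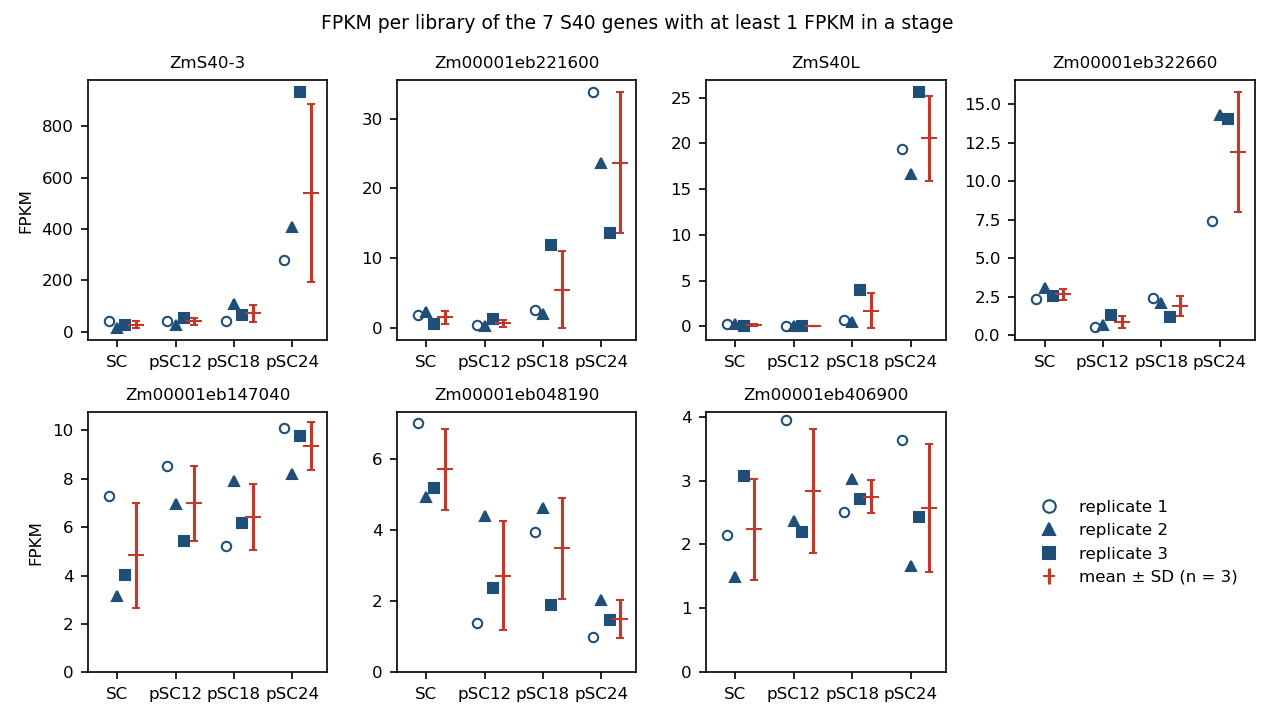
FPKM of the 7 S40 genes with at least 1 FPKM in a stage, in the 3 libraries of each stage (symbols by replicate) with the stage mean ± SD (red); each panel has its own linear scale. ZmS40-3, ZmS40L, Zm00001eb221600 and Zm00001eb322660 are highest in pSC24, Zm00001eb048190 is highest in SC, and replicate 3 stands apart in pSC18 for ZmS40L (3.96 FPKM) and Zm00001eb221600 (11.9 FPKM).

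The remaining 13 members were at or near the limit of detection. Their highest stage mean was 0.899 FPKM and their highest single library 1.98 FPKM, both in Zm00001eb361820. Of these 13, 5 had no count in any library, 3 had at most 3 counts in each library, and 5 passed 3 counts somewhere. Zm00001eb153140 had 27 counts in pSC18 replicate 3 and 20 in pSC24 replicate 2, against at most 7 in each of the other 10 libraries. Zm00001eb426750 had 9, 0 and 13 counts in pSC18 and 2, 6 and 22 in pSC24, and none in pSC12. None of the 13 was called in any comparison, and 10 of them did not pass the filter on low counts and were not tested. For genes at this level no difference between stages was called, and whether this depth could show one was not tested.

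The order of the levels changed between stages. In SC the order by mean was ZmS40-3 (28.1 ± 14.7 FPKM), Zm00001eb048190 (5.70 ± 1.13), Zm00001eb147040 (4.83 ± 2.18), Zm00001eb322660 (2.66 ± 0.36), Zm00001eb406900 (2.23 ± 0.79), Zm00001eb221600 (1.51 ± 0.91) and ZmS40L (0.146 ± 0.129). The libraries of Zm00001eb048190 and Zm00001eb147040 overlapped there, as did those of Zm00001eb322660 and Zm00001eb406900 and those of Zm00001eb406900 and Zm00001eb221600. In pSC24 the order was ZmS40-3 (540 ± 347 FPKM), Zm00001eb221600 (23.7 ± 10.1), ZmS40L (20.5 ± 4.63), Zm00001eb322660 (11.9 ± 3.89), Zm00001eb147040 (9.35 ± 1.01), Zm00001eb406900 (2.57 ± 1.0) and Zm00001eb048190 (1.5 ± 0.53). Zm00001eb221600 overlapped with both ZmS40L and Zm00001eb322660 in pSC24. Zm00001eb322660 and Zm00001eb147040 overlapped there too, as did Zm00001eb406900 and Zm00001eb048190. ZmS40L thus moved from the last place among the 7 genes to the third, and its rank among all annotated genes went from 19675 in SC to 3897 in pSC24.

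The comparison of pSC24 with SC asks which members differ between synergid cells before pollination and persistent synergid cells shortly before their removal. Of the 10 members tested, 4 rose (ZmS40-3, ZmS40L, Zm00001eb221600 and Zm00001eb322660) and 1 fell (Zm00001eb048190), where 10.3% of all 21143 genes tested were called higher and 7.57% lower. Libraries did not overlap for 5 members that were higher and 1 that was lower, against 23.9% and 20.6% of all genes. The median log2 fold change of the 10 members was 1.74 and that of all genes 0.05. Since the filter on low counts keeps a weak gene that is high in 1 stage, these counts and medians describe the tested members and not the family. The same holds for the counts and medians of the comparisons below. With a term for the mapping set, pSC24 replicate 1 alone stood against SC, so only sizes are given. The log2 fold changes were then 3.30 for ZmS40-3, 4.48 for Zm00001eb221600, 7.01 for ZmS40L, 1.48 for Zm00001eb322660 and -2.53 for Zm00001eb048190. Without SC replicate 1, 5 members rose, Zm00001eb147040 among them, and none fell, while 1884 of all 22240 genes then tested were called higher and 1296 lower.

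The comparison of pSC24 with pSC18 covers the last interval. Of the 10 members tested, 3 rose (ZmS40-3, ZmS40L and Zm00001eb322660) and none fell, with 4.82% of all genes called higher and 3.26% lower. Libraries did not overlap for 5 members that were higher, against 17.2% of all genes, and for none that was lower (14.4%). The median log2 fold change of the members was 0.29 and that of all genes -0.01. With a term for the mapping set, pSC24 replicate 1 alone stood against pSC18, so only sizes are given. The log2 fold changes were then 1.95 for ZmS40-3, 3.48 for ZmS40L and 1.96 for Zm00001eb322660. Without pSC18 replicate 1 or without pSC24 replicate 3, ZmS40L was no longer called (adjusted p = 0.0501 and 0.0515).

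SC and pSC18 both belong to the lower mapping set. ZmS40L was the 1 member of 10 that rose, and none fell, with 2.71% of all genes called higher and 1.60% lower. Libraries did not overlap for ZmS40L (higher, 14.9% of all genes) and for Zm00001eb048190 (lower, 16.2%). The median log2 fold change was 0.93 over the members and 0.05 over all genes. When DESeq2 was run on these 6 libraries alone, ZmS40-3 was called in place of ZmS40L (log2 fold changes of 1.36 and 3.57, adjusted p = 0.00605 and 0.0524).

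In the first interval, from SC to pSC12, no member was called by edgeR (1.62% of all genes were higher and 1.18% lower). An unadjusted p under 0.05 was found for 2 of 10. Its share over all genes was not counted, so the 2 cannot be set against a background. DESeq2 called 2 lower on 12 libraries (ZmS40L and Zm00001eb322660) and none on 6. Over all genes DESeq2 called 557 of 21463 lower on 12 libraries and 636 of 21100 on 6. Libraries did not overlap for 2 members, Zm00001eb048190 and Zm00001eb322660, both lower (16.0% of all genes), and for none that was higher (13.0%). The median log2 fold change was -0.45 over the 10 members and -0.01 over all genes, and it was 0.17 over 9 members when ZmS40L was set to its bound in pSC12 and Zm00001eb426750, under that bound in both stages, was left out. With a term for the mapping set the log2 fold change of ZmS40-3 turned to -0.73. That shift was set by the difference between the pSC24 libraries and is no measurement of SC or pSC12.

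From pSC12 to pSC18 no member was called by edgeR, and 5 of all genes were (0.0189% higher and 0.00473% lower). An unadjusted p under 0.05 was found for 4 members. Its share over all genes was not counted, so the 4 cannot be set against a background. DESeq2 called 2 higher, ZmS40L and Zm00001eb221600, on 12 as on 6 libraries. Over all genes DESeq2 called 340 of 21463 higher on 12 libraries and 252 of 21314 on 6. The libraries of ZmS40L and Zm00001eb221600 did not overlap between the stages, as was the case for 9.01% of all genes that were higher and 8.59% that were lower. The median log2 fold change was 0.98 over the members and 0.03 over all genes. From pSC12 to pSC24, 4 members rose (ZmS40-3, ZmS40L, Zm00001eb221600 and Zm00001eb322660) and none fell, with 8.68% of all genes called higher and 5.55% lower. Libraries did not overlap for 6 members that were higher (the 4 called genes, Zm00001eb361820 and Zm00001eb426750), against 21.2% of all genes, and for none that was lower (17.4%). ZmS40L and Zm00001eb426750 had no count in pSC12 and passed the filter on low counts through the later stages. They could thus not be lower than in pSC12, and their place among the 6 and in the medians is no evidence of a rise. The median over the members was 2.44, or 1.56 with ZmS40L and Zm00001eb426750 at their bounds in pSC12, and 0.02 over all genes. The comparisons share libraries and are therefore given side by side.

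**Figure D3:**
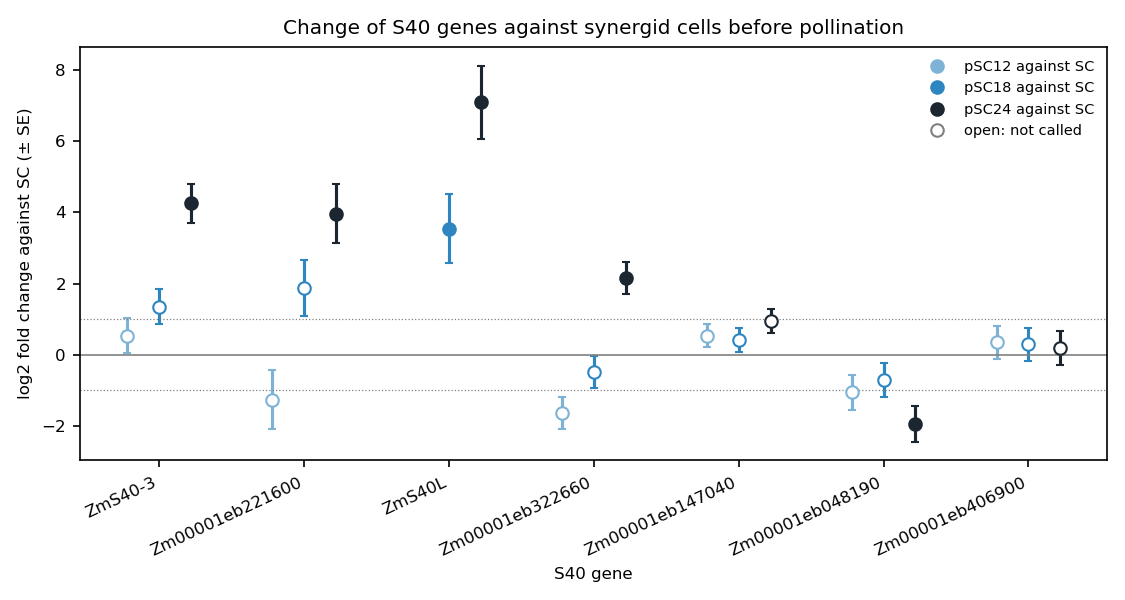
Log2 fold change ± SE of 7 S40 genes against SC at 12, 18 and 24 HAP (edgeR, 3 libraries per stage); filled points are called, open points are not, and dotted lines mark a change of 1. ZmS40L is called at 18 HAP (3.54) and 24 HAP (7.09), and no point is drawn at 12 HAP, where it had no counts. ZmS40-3, Zm00001eb221600 and Zm00001eb322660 rise and Zm00001eb048190 falls at 24 HAP.

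The first stage called against SC was read for each member. ZmS40L was called from 18 HAP on, ZmS40-3, Zm00001eb221600, Zm00001eb322660 and Zm00001eb048190 at 24 HAP, and Zm00001eb147040 and Zm00001eb406900 at no stage. A difference in onset between members was not tested, and at 18 HAP DESeq2 on 6 libraries called ZmS40-3 and not ZmS40L, as given above. Where the single pSC18 libraries stood between the SC mean (0%) and the pSC24 mean (100%) on the log2(FPKM + 1) scale shows how even this stage was. ZmS40-3 stood at 16.2, 48.9 and 31.6% in replicates 1, 2 and 3, ZmS40L at 13.0, 9.77 and 50.3%, and Zm00001eb221600 at 17.9, 9.47 and 74.2%. Zm00001eb322660 was still on the SC side or below it in all 3 libraries (-5.77, -12.9 and -41.5%), and Zm00001eb048190 had gone 29.9, 16.9 and 84.1% of its way down. The median over the 2170 genes called higher in pSC24 than in SC was 30.7, 35.3 and 33.7%.

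pSC18 replicate 3 stood apart for some members and not for others. On the log2(FPKM + 1) scale it lay 1.98 above the mean of replicates 1 and 2 for Zm00001eb221600 and 1.64 above it for ZmS40L, while the difference was -0.04 for ZmS40-3, -0.57 for Zm00001eb322660 and -0.87 for Zm00001eb048190. Over the 2170 genes the median difference was -0.01, with the 10th percentile at -0.59 and the 90th at 0.77. This library had 24285 genes with a count, against 22147 and 22096 in replicates 1 and 2, and the summed level of the egg cell genes was the highest of the pSC18 libraries in it, at 199 FPKM, below the highest SC library at 428 FPKM. The part of these values in the level of the S40 genes was not tested.

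**Figure D4:**
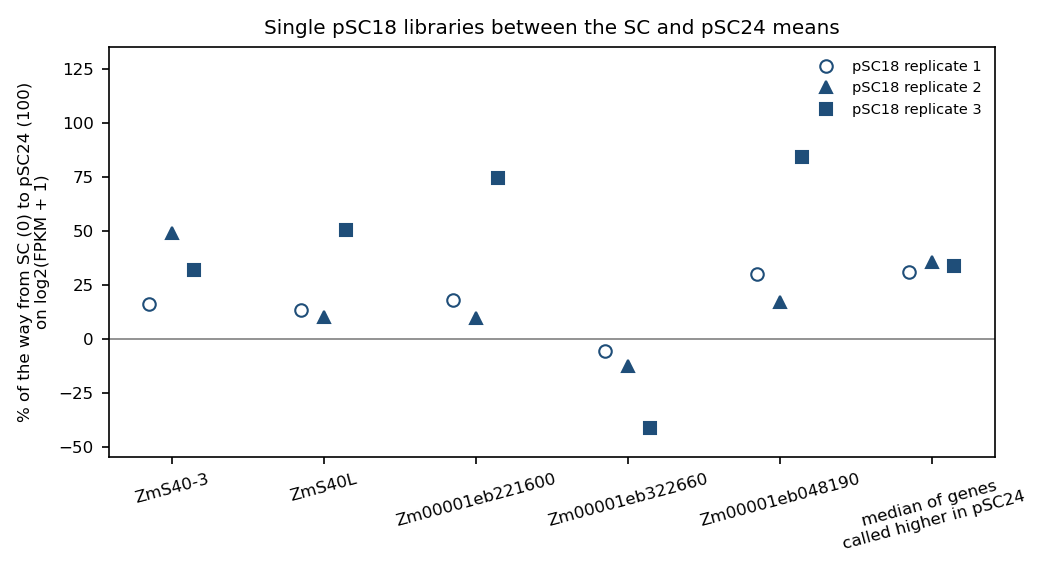
Place of the 3 pSC18 libraries (symbols by replicate) between the mean of SC (0%) and the mean of pSC24 (100%) on the log2(FPKM + 1) scale, for 5 S40 genes and as the median of the 2170 genes called higher in pSC24 than in SC. Replicate 3 is at 50.3% for ZmS40L and 74.2% for Zm00001eb221600, at 31.6% for ZmS40-3 and at 33.7% for the median gene.

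Other genes took a like course over the stages. For each member called between SC and pSC24, the genes with the highest Pearson correlation of log2(FPKM + 1) were taken from 11859 genes with at least 5 FPKM in a stage. The 12 libraries share 4 stages, so a high correlation describes a like course over the stages and gives no test. The size of a change does not enter it. The gene most like ZmS40L was Zm00001eb206260, without a described function (r = 0.992), followed by Zm00001eb010570, a gene with a LOB domain (r = 0.991), and Zm00001eb345400, ZmVPEγ, a vacuolar processing enzyme (r = 0.991), which rose from 0 to 119 FPKM. With a pseudocount of 0.1 none of its 5 nearest genes remained among the nearest 5, whereas 3 of 5 did for ZmS40-3. The genes most like ZmS40-3 were Zm00001eb051420 (r = 0.985) and Zm00001eb098520 (r = 0.976), both without a described function, and Zm00001eb155950, a putative clathrin assembly protein with an ANTH domain (r = 0.975).

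Zm00001eb221600 was followed most closely by Zm00001eb369730, without a described function (r = 0.959), and by Zm00001eb369060, a NAC transcription factor gene (r = 0.956). Zm00001eb322660 ran with Zm00001eb303040, a late embryogenesis abundant protein gene (r = 0.985), and with Zm00001eb427210, a RING finger gene (r = 0.979), both lower in pSC12 than in SC by their means (53.6 and 39.9 FPKM, and 4.67 and 2.57 FPKM). From SC to pSC24 their log2 fold changes were 0.51 (not called) and 2.13 (called), against 2.15 for Zm00001eb322660. For the falling Zm00001eb048190 the nearest genes were Zm00001eb232190, described as a dolichol kinase (r = 0.930), and Zm00001eb325010, a WD repeat gene (r = 0.925). Their log2 fold changes from SC to pSC24 were -0.48 (not called) and -1.13 (called), against -1.93 for Zm00001eb048190.

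Genes outside the family that carry senescence in their description moved in both directions between SC and pSC24. Of 32 such genes 6 were tested, of which 2 rose and 1 fell, beside 10.3% and 7.57% of all genes, and their median log2 fold change was -0.70. Through the filter on low counts, these values describe the tested genes and not the whole list. The most abundant, Zm00001eb396640, described as senescence associated gene 20, stayed at 1611 FPKM in SC and 1512 FPKM in pSC24 as means (log2 fold change -0.11, adjusted p = 0.577, edgeR). Zm00001eb398940, a senescence and dehydration associated gene, rose from 16.8 to 38.0 FPKM (1.17, adjusted p = 0.00180), and Zm00001eb228160, a gene of early response to dehydration, rose from 1.87 to 10.4 FPKM (2.46, adjusted p = 0.00821). Zm00001eb020430, described as the senescence-specific cysteine protease SAG39, fell from 5.68 to 2.35 FPKM (-1.29, adjusted p = 0.0432) and was named after its values were seen, as the called gene that fell.

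Of 13 genes whose description names chlorophyll breakdown or its enzymes, 7 were tested, of which 4 rose and 1 fell from SC to pSC24, with a median log2 fold change of 1.16. Over all genes 10.3% rose and 7.57% fell, with a median of 0.05. As for the S40 genes, the filter on low counts keeps a weak gene that is high in 1 stage. The counts and the median thus describe the tested genes and not the whole list. Synergid cells are not green. Among the most abundant, Zm00001eb003760, a pheophorbide a oxygenase gene of chlorophyll breakdown, rose from 6.30 to 14.2 FPKM (log2 fold change 1.16, adjusted p = 0.0336, edgeR), and Zm00001eb231810, a pheophytinase gene, rose from 3.24 to 15.2 FPKM (2.22, adjusted p = 0.000753). Zm00001eb027950, a red chlorophyll catabolite reductase gene, fell from 12.0 to 2.69 FPKM (-2.16, adjusted p = 0.000110) and was already lower at 18 HAP (-1.35, adjusted p = 0.00833). The other 2 that rose, chosen for naming after their values were seen, encode STAY-GREEN proteins, which start the removal of magnesium from chlorophyll: Zm00001eb319560 went from 0.567 to 17.7 FPKM and Zm00001eb103480 from 0.0351 to 12.7 FPKM. The remaining 2 tested genes encode chlorophyllide a oxygenase, which makes chlorophyll b, and were not called. From pSC18 to pSC24, 4 of the 7 chlorophyll genes rose and none fell, where 4.82% of all genes rose and 3.26% fell. None of the 6 senescence-named genes was called in that interval.

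A panel of 14 other genes, among them ZmVPEγ, was displayed with ZmS40-3 and ZmS40L as regulators or effectors of cell death. All 14 rose from SC to pSC24 and from pSC18 to pSC24, and 3 rose from SC to pSC18, but since they were chosen on these libraries their count is no independent evidence. Their stage means ran from 0 to 4.74 FPKM in SC and from 7.38 to 372 FPKM in pSC24, so that ZmS40-3, at 540 FPKM, lay above the highest of them and ZmS40L, at 20.5 FPKM, within their range.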

How the data were processed

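RNA from hand-isolated maize synergid cells was amplified as full-length poly(A) cDNA (SMART-Seq v4, no molecular identifiers) and sequenced. Per the study's methods and the submitters' notes, the authors cleaned reads with cutadapt 1.15, mapped them with HISAT2 2.0.5 to the B73 genome AGPv5 and counted them per gene with featureCounts 1.5.0-p3, and deposited the unnormalized counts for 45246 genes, 1788 of them loci without an annotated gene. Strand and multi-mapping settings are not given in the sources used here. The authors also deposited FPKM values. Each equals the count divided by gene length and by the library's DESeq2 size factor, on a common scale, so FPKM follow that scaling and not the library totals.

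The 12 libraries (4 stages of 3) were fitted in 1 model by stage with the quasi-likelihood test of edgeR 4.0.16 (limma 3.58.1, R 4.3.3) on TMM-normalized counts after filterByExpr, which kept 21143 genes, 10 of the 20 S40 genes among them. Benjamini-Hochberg adjustment ran over all genes tested within each of 6 comparisons, and every adjusted p in the text comes from this edgeR fit unless DESeq2 1.42.0 or an alternative is named. Calls needed both an adjusted p below 0.05 and a size of the log2 fold change above 1. The standard error is the log2 fold change divided by the root of the F statistic. Folds against stages with at most 3 counts per library were computed against 3 counts per library, a bound that covers counting error only. The labels do not say that libraries of a stage came from separate plants, so p-values measure the spread between these libraries. Scripts were tested on simulated data and tables were handled in Python 3.11.15 (pandas 2.3.3, numpy 2.4.6, matplotlib 3.10.9).

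All S40 genes are accounted for, with values per library for those called or reaching a stage mean of 1 FPKM. The 5 genes most like each called member were ranked, and the first 2 or 3 are named. Gene lists (senescence-named, chlorophyll breakdown, WRKY, NAC, the study's cell death genes) are searches of the gene descriptions or the study's own choice, with up to 3 members of highest FPKM named. Members and lists were chosen with earlier results of these data known. Alternatives were DESeq2 on 12 or 6 libraries, edgeR on 6, other scalings, no filter, a replicate block, a mapping-set term, a test against the fold threshold (glmTreat) and leaving out each library. Ratios within mapping sets and the split of the NAC list were added after seeing the data.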

Additional observations from a re-analysis of the deposited data

How the results depend on the processing

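Of the S40 genes called in each comparison, the 4 from pSC12 to pSC24 were 4 under every alternative run. From SC to pSC24 the 5 calls (4 higher, 1 lower) became 4 higher and 0 lower with glmTreat and 6 scaled by library total. In that order, calls over all genes were 950 higher and 563 lower, and 2911 and 1118, against 2170 and 1600. With each library left out the number of S40 calls was 5, but without SC replicate 1 these were 5 higher and 0 lower, with Zm00001eb147040 gained (adjusted p = 0.0120) and Zm00001eb048190 lost (adjusted p = 0.0545, edgeR). From pSC18 to pSC24 the 3 calls ranged from 2 to 4 with a library left out. For changes from SC or pSC18 to pSC24 no calls are counted with the mapping-set term, since it leaves pSC24 replicate 1 alone. From SC to pSC18 the 1 call became 0 with edgeR on 6 libraries (where ZmS40L was not tested), a replicate block, the mapping-set term or glmTreat, and 0 to 1 with a library left out. Over all genes these alternatives called 602, 498, 539 and 35 higher in that order, against 572. From SC to pSC12 the 0 calls became 2 with DESeq2 on 12 libraries and 0 to 1 with a library left out, and from pSC12 to pSC18 the 0 calls became 2 with DESeq2 on 12 or 6 libraries and 1 without the filter on low counts. The DESeq2 counts over all genes are given with these comparisons. Without the filter 53 genes were called higher and 7 lower from pSC12 to pSC18, against 4 and 1. A log2 fold change reversed its sign for ZmS40-3 from SC to pSC12 (-0.73) and for Zm00001eb406900 from pSC18 to pSC24 (0.40) with the mapping-set term. These shifts were set by the difference between the pSC24 libraries, from which alone the term is estimated. With a library left out, Zm00001eb406900 ranged from -0.15 to 0.51 from SC to pSC24 and from -0.44 to 0.13 from pSC18 to pSC24. The cause of this spread was not tested. Same-numbered libraries of different stages did not deviate together (18 pairs, r from -0.058 to 0.0911), so the replicate numbers were not taken as pairs. The replicate block ended the call of ZmS40L from SC to pSC18 (log2 fold change 3.11, adjusted p = 0.109, edgeR). With 3 libraries a stage, members under 1 FPKM and folds against 3 or fewer counts are limited by depth.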

Other observations

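WRKY and NAC genes, the transcription factor families with the best known members in leaf senescence, were counted beside the S40 genes. The filter on low counts keeps a weak gene that is high in 1 stage. Counts and medians of both lists thus describe the tested genes and not the families. Of 143 WRKY genes 51 were tested, of which 9 rose and 4 fell from SC to pSC24, with a median log2 fold change of 0.86 against 0.05 over all genes, of which 10.3% rose and 7.57% fell. The most abundant WRKY genes, Zm00001eb195420 and Zm00001eb430430, stood at 44.3 and 14.1 FPKM in SC and at 42.4 and 19.0 FPKM in pSC24 and were not called. Zm00001eb312870, described as WRKY76, rose from 4.77 to 16.0 FPKM (1.73 ± 0.45 SE, adjusted p = 0.0122, edgeR). From pSC18 to pSC24, 2 WRKY genes rose and 1 fell (4.82% and 3.26% of all genes), and from SC to pSC18, 2 rose and none fell (2.71% and 1.60%).

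Of 183 genes on the NAC list 69 were tested, of which 16 rose and 1 fell from SC to pSC24, beside 10.3% and 7.57% of all genes. The median log2 fold change was 0.60, against 0.05 over all genes. Only S40 genes were taken out of the list. NAC genes of the cell death panel, which were chosen on these libraries, were not removed from it. The list also takes 7 genes of the nascent polypeptide-associated complex, none of which was called in that comparison, and without them the counts were 16 and 1 of 62 and the median 0.71. From pSC18 to pSC24, 14 of the 62 NAC transcription factor genes rose and none fell, beside 4.82% and 3.26% of all genes, and from SC to pSC18, 3 rose and none fell (2.71% and 1.60%). The most abundant of them, Zm00001eb191020, described as NAC78, stood at 44.2 FPKM in SC and 39.4 FPKM in pSC24 and was not called.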
